A study of Mus musculus with 8 samples.

Results

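Fatty acid oxidation and ketone body synthesis were followed through 37 genes, taken as the rows of the deposited table whose gene symbol matched a list of pathway enzymes, transporters and regulators. All 37 were found, among 56691 genes in the table, and all 37 passed the filter on low counts that left 14533 genes for testing. By their established roles, 18 members act in or at the entry to mitochondria, 12 act in peroxisomes, 2 make ketone bodies, and 5 are regulators or other targets of the nuclear receptor PPARα. The tissue was liver from wild-type C57BL/6J mice, sequenced in 8 libraries. Of these, 4 carry titles for the plasmid plive-Tet1 and 4 for its control, plive-Con. Each plasmid was given by hydrodynamic injection, in which a large volume pushed into the tail vein carries DNA into liver cells. All animals were 6 weeks old at the start, carried no engineered allele, ate the HFD-CDAA diet (high in fat, without choline and with defined amino acids) for 4 weeks and were killed after a short fast. The series title describes hepatocyte overexpression of Tet1, an enzyme that oxidises methylated cytosine in DNA, in a mouse model of steatohepatitis. Which promoter the plasmids carry is not stated in the labels. The diet was common to both groups, so the data hold no comparison with normal chow. A library is called a liver here, although the labels do not say that each came from its own animal, so every p-value speaks only of the spread among these libraries.

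Fatty acids are activated to acyl-CoA esters, carried into mitochondria on carnitine and shortened by cycles of dehydrogenation, hydration, dehydrogenation and thiolysis. Very long and branched chains are shortened in peroxisomes first, with hydrogen peroxide as a by-product. In the fasted liver the acetyl-CoA released is turned into ketone bodies for other organs. PPARα, activated by fatty acids, is the transcription factor best known for raising these genes during fasting, and peroxisomal enzymes are among its classical targets in rodents.

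Tet1 itself collected 9, 8, 12 and 5 counts in the plive-Tet1 livers, against 1, 9, 6 and 5 counts in the plive-Con livers. The exact permutation test of log2(FPKM + 0.5), two-sided over 70 assignments of the libraries, gave p = 0.371, and 0.0286 is the smallest this design can give. A difference in Tet1 was not detected, so the group labels could not be checked with it. These counts do not show the overexpression named in the series title, and the reason was not tested. Which stretch of Tet1 the plasmid carries is not stated in the labels. For plive-Tet1 2, 3 and 4 the treatment field reads Tet2, Tet3 and Tet4 where the titles read Tet1, and the titles were followed. Libraries held between 15885113 and 19850800 counts. The first principal component of all tested genes held 27.0% of the variance, with plive-Con 4 at 52.0 and the other 7 libraries between -19.0 and 3.72. Most fold changes of members are therefore followed by the value without plive-Con 4, or by the range with any 1 library left out. Summed FPKM of 10 hepatocyte markers ranged from 41352 to 50119 in the plive-Tet1 livers and from 43511 to 50346 in the plive-Con livers, with none of the markers at 0. Of 8 adipocyte markers, Adipoq, Plin1, Lep and Retn were at 0 in every library. The sum of the list ranged from 6.66 to 8.57 FPKM with plive-Tet1 and from 5.67 to 7.95 FPKM with plive-Con. Summed FPKM of 8 muscle markers ranged from 0.22 to 0.34 with plive-Tet1 and from 0.27 to 6.43 with plive-Con, where plive-Con 3 was the highest.

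Upstream sequence was examined because most members were highest in the same liver. RefSeq start-site windows of 300 bases, 250 before and 50 after each annotated start, were held for 30 of the 37 members, as 36 windows on GRCm38.p6. The members without a window were Abcd2, Acaa2, Acat1, Crat, Decr1, Hsd17b4 and Vnn1. The counts of the libraries were made on GRCm39, so the coordinates of the 2 builds are not interchangeable. The windows were searched on both strands for the textbook PPARα site, a direct repeat of AGGTCA with 1 base of any kind between the copies. No member window held it exactly or with 1 mismatch, while 0.0396% and 0.554% of all 32851 windows did. With up to 2 mismatches it was found in 2 member windows, of Etfa and Creb3l3, which is 5.56% of the member windows against 3.86% of all windows. CCAAT, read on either strand, was present in 16 member windows, 44.4%, against 37.4% of all windows. These matches describe letters in a short window and do not show binding.

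The 250 bases before the start site are printed for 4 members, chosen after their values were seen, whose stretch held no exon of GENCODE M21: Ehhadh, with the widest range between livers of all members, Acaa1b, the most abundant peroxisomal thiolase, Acadm, a mitochondrial dehydrogenase, and Etfa, whose level did not follow the others. All lie on the minus strand and read 5′ to 3′ towards the gene. Ehhadh is at chr16:21787835-21788084, Acaa1b at chr9:119157094-119157343, Acadm at chr3:153944644-153944893 and Etfa at chr9:55512244-55512493. Capitals mark CCAAT or its reverse complement and, in Etfa, also the repeat with 2 mismatches, which begins 77 bases before the start site and lies on the opposite strand.
Ehhadh: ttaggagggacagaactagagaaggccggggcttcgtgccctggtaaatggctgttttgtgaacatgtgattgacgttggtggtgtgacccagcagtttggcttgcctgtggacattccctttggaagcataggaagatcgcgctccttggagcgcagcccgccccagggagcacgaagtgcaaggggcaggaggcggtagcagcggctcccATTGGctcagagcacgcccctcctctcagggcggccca
Acaa1b: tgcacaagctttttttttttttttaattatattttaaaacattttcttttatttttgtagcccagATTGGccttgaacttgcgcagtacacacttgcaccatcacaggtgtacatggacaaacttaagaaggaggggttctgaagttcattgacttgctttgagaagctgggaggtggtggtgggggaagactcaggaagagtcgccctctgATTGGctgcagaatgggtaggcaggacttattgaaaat
Acadm: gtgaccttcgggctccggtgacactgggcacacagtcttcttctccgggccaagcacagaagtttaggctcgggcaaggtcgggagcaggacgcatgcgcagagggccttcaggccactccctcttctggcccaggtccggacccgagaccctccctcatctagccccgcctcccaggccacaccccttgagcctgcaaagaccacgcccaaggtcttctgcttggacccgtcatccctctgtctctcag
Etfa: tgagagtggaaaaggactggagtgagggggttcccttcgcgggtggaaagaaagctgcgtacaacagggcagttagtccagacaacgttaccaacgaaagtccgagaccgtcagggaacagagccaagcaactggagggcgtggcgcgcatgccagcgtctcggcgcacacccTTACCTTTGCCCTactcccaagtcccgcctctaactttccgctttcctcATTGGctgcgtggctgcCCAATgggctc
Hadha and Hadhb, which encode both subunits of one enzyme complex, are read away from each other on GRCm38.p6 chromosome 5. Their start sites lie at 30154980 and 30155253, with 272 bases between them, so 228 of the bases upstream of each are shared.

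The members' levels in plive-Tet1 livers were compared with those in plive-Con livers to see whether the Tet1 plasmid goes with a change in fat oxidation on this diet. Most members had a lower mean with plive-Tet1. The estimate was below 0 for 35 of 37, against 48% of all tested genes. Peroxisomal genes had a median log2 fold change, as plive-Tet1 over plive-Con, of -0.33, mitochondrial genes of -0.20 and ketogenic genes of -0.11, beside 0.01 over all tested genes. None of these differences passed the test. The quasi-likelihood test of edgeR, adjusted by Benjamini-Hochberg, called 0 of the 37 members, where 0% of all genes were called, and the smallest adjusted p of a member was 0.999995. DESeq2 also called 0 members, where it called 0.0757% of all genes. At an unadjusted p under 0.05 there were 2 members, Acaa1a and Etfb, and 4.07% of all tested genes. The number of such members changed with the libraries used, to 0 without plive-Con 4 or without plive-Tet1 2, 6 without plive-Con 1 and 4 without plive-Con 2. Over all genes, 505 of 14824 were at that p without plive-Con 4, and 293 of 14692 without plive-Tet1 2. The same count was 725 of 14810 without plive-Con 1 and 710 of 14740 without plive-Con 2. Without the filter on low counts there were 11 such members, where 1538 of 28149 genes were at that p. In no member did the groups separate, which happened in 2.28% of all genes.

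The lower means depended largely on plive-Con 4. Without this liver, 25 of 37 members were below 0, which is 67.6%, against 48.3% of all tested genes. The medians were then -0.10 for peroxisomal, -0.04 for mitochondrial and -0.01 for ketogenic genes, beside 0.01 over all tested genes. The 5 regulators and other PPARα targets had a median of -0.08 with all livers and of 0.14 without plive-Con 4. Without plive-Tet1 1, 32 members were below 0, and the medians were -0.25 for peroxisomal, -0.12 for mitochondrial and -0.06 for ketogenic genes. In limma on log2(FPKM + 0.5) the medians were -0.21, -0.13 and -0.05 in that order of compartments. With all libraries scaled to their totals only, the median of all genes moved to 0.05, and 33 members were below 0.

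**Figure D1:**
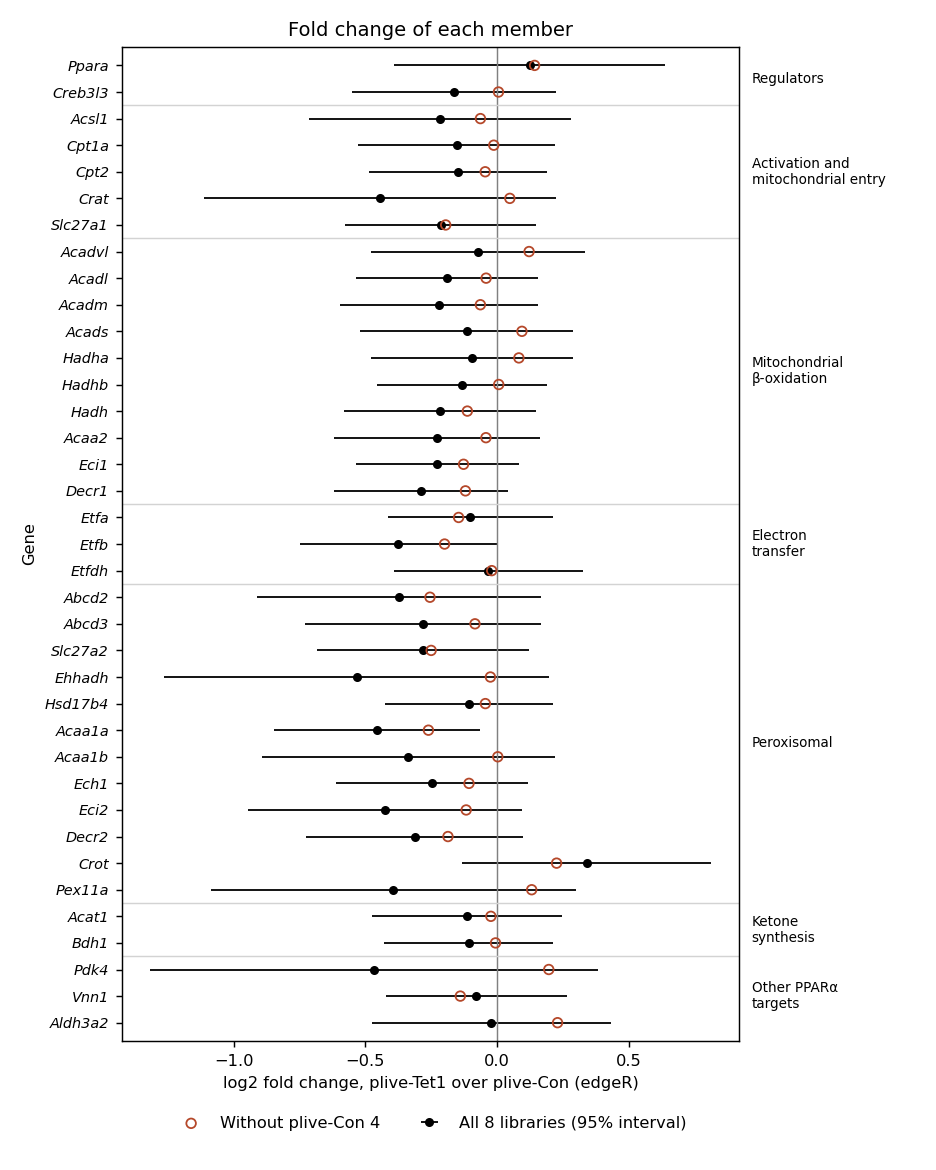
Fold change of each member, plive-Tet1 over plive-Con, on the log2 scale of the edgeR fit. Filled points with bars are estimates and 95% intervals from all 8 libraries, and open circles are estimates without plive-Con 4. Of the 37 intervals, 2 leave out 0, those of Acaa1a and Etfb, and the open circles of most members sit closer to 0 than the filled points.

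Most members were at their highest in the same liver. plive-Con 4 had the highest FPKM of the 8 livers in 30 of 37 members, against 13.7% of all tested genes. plive-Tet1 1 had the lowest FPKM in 19 of 37, against 10.6% of all tested genes, and the lowest TMM-scaled CPM in 16 of 37, against 11.8% of all tested genes. The members highest elsewhere were Ppara, Etfa, Etfdh and Crot in plive-Tet1 4, Slc27a1 and Vnn1 in plive-Con 2, and Slc27a2 in plive-Con 3. As the median deviation from each gene's mean over 8 livers, on the log2 CPM scale, peroxisomal genes stood at -0.33, -0.11, -0.24 and 0.14 in plive-Tet1 1 to 4, and at -0.20, -0.20, 0.31 and 0.59 in plive-Con 1 to 4. Mitochondrial genes stood at -0.24, -0.08, -0.08 and 0.03 in the plive-Tet1 livers, and at -0.10, -0.25, 0.20 and 0.49 in the plive-Con livers. Ketogenic genes stood at -0.20, -0.10, -0.02 and 0.13 in the plive-Tet1 livers, and at -0.15, -0.24, 0.26 and 0.33 in the plive-Con livers. In all 3 compartments plive-Con 3 and 4 were highest, plive-Tet1 4 came next, and plive-Con 1 and 2 lay below 0 together with plive-Tet1 1, 2 and 3.

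**Figure D2:**
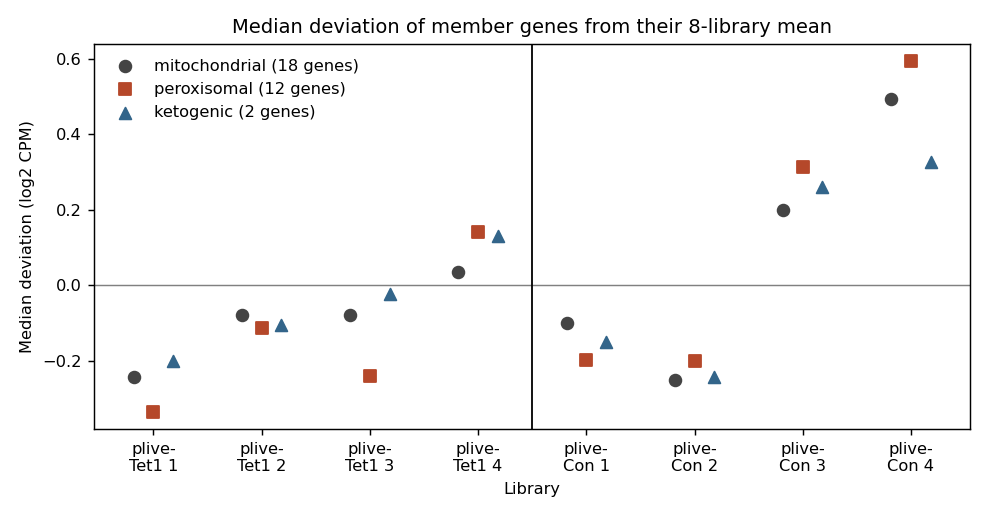
Median deviation of member genes from their mean over 8 libraries, on the log2 CPM scale, by library and compartment. Each point is the median over 18 mitochondrial, 12 peroxisomal or 2 ketogenic genes. plive-Con 4 is highest in all 3, at 0.59 for peroxisomal genes, and plive-Con 1 and 2 lie below 0 like plive-Tet1 1, 2 and 3.

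The peroxisomal members covered a wider range than the mitochondrial ones. The ratio of the highest to the lowest liver, in CPM, had a median of 2.23 over peroxisomal, 1.74 over mitochondrial and 1.48 over ketogenic members, beside 1.68 over all tested genes, many of which have fewer counts. Without plive-Con 4 these medians were 1.67, 1.46 and 1.42, beside 1.59 over all tested genes. This difference in range was not tested. Markers of other cell types also differed between livers. Summed FPKM of 12 macrophage and Kupffer cell markers was 1465, 1226, 1087 and 1235 in the plive-Tet1 livers, against 1148, 1105, 827 and 852 in the plive-Con livers, so it was lowest in plive-Con 3 and 4 and highest in plive-Tet1 1. Summed stellate cell markers, also 12, were 166, 152, 133 and 146 FPKM in the plive-Tet1 livers, against 156, 179, 102 and 99.99 FPKM in the plive-Con livers. Cholangiocyte markers (10) ranged from 89.0 to 222 FPKM with plive-Tet1 and from 52.5 to 152 FPKM with plive-Con, endothelial markers (12) from 60.3 to 89.2 and from 68.5 to 103 FPKM, and lymphoid markers (12) from 9.23 to 13.1 and from 7.94 to 26.6 FPKM. Of the lymphoid and of the endothelial markers, 11 of 12 had an estimate below 0. The other lists were mixed in direction. Below 0 were 5 of 12 macrophage and Kupffer cell markers, 5 of 12 stellate markers and 4 of 9 tested cholangiocyte markers. Over all tested genes the share was 48%. Summed FPKM is weighted towards the most abundant markers and does not show these directions. At an unadjusted edgeR p under 0.05 were 8 of 12 lymphoid, 5 of 12 macrophage and Kupffer cell, and 3 of 12 endothelial markers. No stellate or cholangiocyte marker was at that p, against 4.07% of all tested genes. None of these markers was called after adjustment. Reads of mitochondrial genes took 6.43%, 3.56%, 3.23% and 4.51% of the counts in the plive-Tet1 livers, and 6.42%, 8.63%, 4.45% and 3.31% in the plive-Con livers. The part of these differences in the members' values was not tested. In bulk liver, fewer cells of a type and less RNA per cell cannot be told apart.

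**Figure D3:**
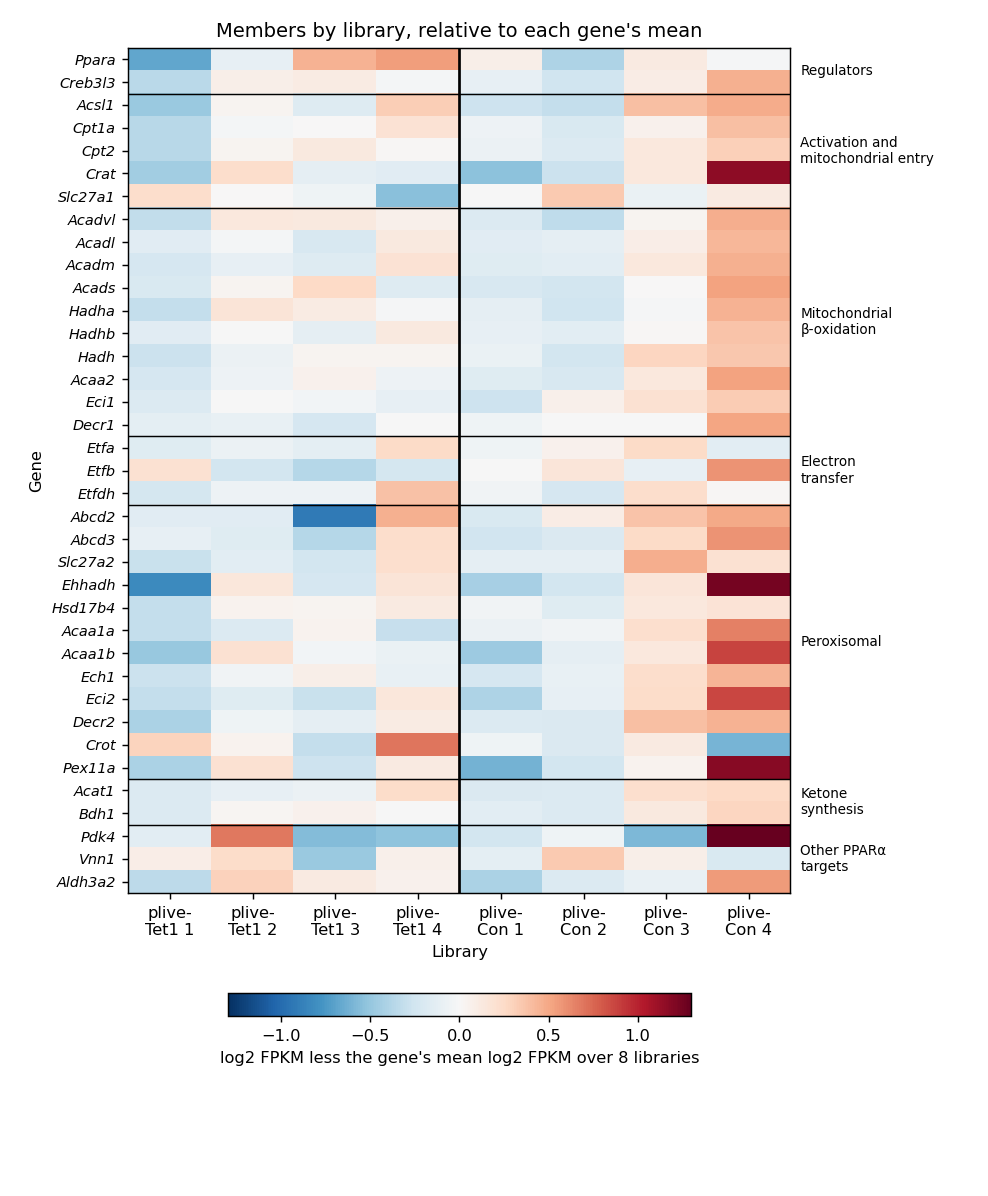
Deviation of each of the 37 members (rows, by role) from its mean log2 FPKM over 8 libraries (columns, plive-Tet1 left of plive-Con). Values beyond the ends of the colour bar take its end colour. The plive-Con 4 column is high in most rows, with Crot as the exception among peroxisomal genes, and plive-Tet1 1 is below the mean in most.

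Among the regulators, Ppara did not share this order. Ppara, the receptor itself (ENSMUSG00000022383, GRCm39 chromosome 15, 85619184 to 85687020, plus strand), measured 9.15, 13.6, 19.98 and 21.4 FPKM in the plive-Tet1 livers, against 15.4, 11.1, 15.8 and 14.5 FPKM in the plive-Con livers. plive-Con 4 lay in the middle of the 8 livers, and the highest and the lowest value were both from plive-Tet1. Its log2 fold change was 0.12 ± 0.24 (SE), with a 95% interval from -0.39 to 0.64 and an exact permutation p of 0.857 (log2 CPM, two-sided, as for every member below). With 1 liver left out it lay between -0.06 (without plive-Tet1 4) and 0.32 (without plive-Tet1 1). Creb3l3, which encodes the fasting-induced transcription factor CREBH of the endoplasmic reticulum, measured 79.8, 107, 109 and 99.9 FPKM in the plive-Tet1 livers, against 93.98, 84.5, 108 and 139.8 FPKM in the plive-Con livers. It was highest in plive-Con 4, and the other plive-Con livers lay inside the range of the plive-Tet1 livers.

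At the entry to mitochondria, Acsl1, the main long-chain acyl-CoA synthetase of liver, measured 31.8, 45.6, 39.6 and 55.5 FPKM in the plive-Tet1 livers, against 36.8, 35.7, 58.2 and 61.96 FPKM in the plive-Con livers. Cpt1a, which makes acylcarnitine at the outer membrane and is the controlled step of the pathway, measured 56.6, 71.6, 72.8 and 83.1 FPKM in the plive-Tet1 livers, against 69.6, 63.6, 75.7 and 95.5 FPKM in the plive-Con livers. Cpt2, which reverses that reaction on the inner membrane, ranged from 47.8 to 67.2 FPKM in the plive-Tet1 livers and from 54.4 to 76.0 FPKM in the plive-Con livers. In all 3 genes plive-Tet1 1 was the lowest liver, plive-Con 4 was the highest and the groups overlapped. The log2 fold change of Cpt1a was -0.15 ± 0.17 (SE), and without plive-Con 4 it was -0.01. Crat, which moves acetyl groups between CoA and carnitine, measured 10.1, 16.2, 12.7 and 12.4 FPKM in the plive-Tet1 livers, against 9.52, 11.4, 15.2 and 30.9 FPKM in the plive-Con livers. The value of plive-Con 4 was the highest, and plive-Con 1 had the lowest. Its log2 fold change was -0.45 ± 0.31 (SE) with all livers and 0.05 without plive-Con 4. The overlapping gene Dolpp1 collected 17.3% as many counts as Crat over the 8 libraries, and whether the counting used strand is not stated in the labels. Slc27a1, a fatty acid transport protein mainly of muscle and fat, was the least expressed member, between 1.42 and 2.43 FPKM with plive-Tet1 and between 1.95 and 2.62 FPKM with plive-Con.

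**Figure D4:**
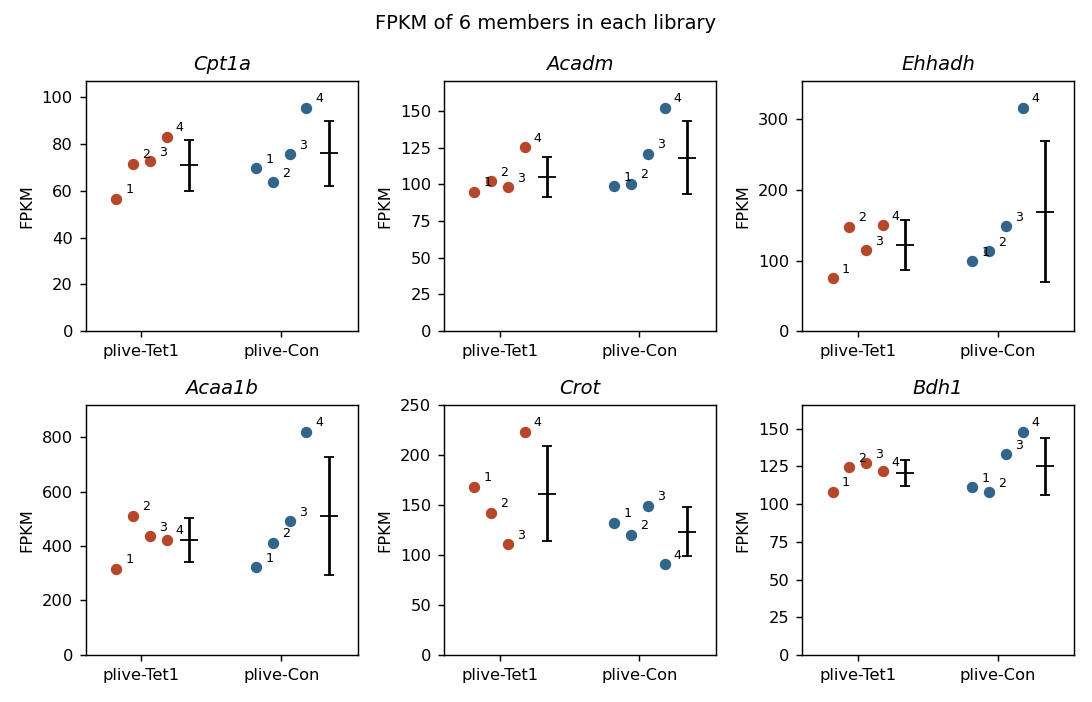
FPKM of 6 members in each library, chosen after their values were seen to show the range of patterns. Points are libraries, with the replicate number beside each, and the bar gives the mean ± SD of the 4 libraries of a group. plive-Con 4 stands highest for Cpt1a, Acadm, Ehhadh, Acaa1b and Bdh1, and lowest for Crot.

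The 4 acyl-CoA dehydrogenases, which start each mitochondrial cycle on chains of falling length, kept close to one another. Acadvl, for very long chains, measured 94.5, 129, 129 and 123 FPKM in the plive-Tet1 livers, against 104, 93.3, 120.2 and 163 FPKM in the plive-Con livers. Acadl, for long chains, had means of 129 ± 13.5 FPKM in the plive-Tet1 livers and 142 ± 27.3 FPKM in the plive-Con livers (SD, n = 4 each). Acadm, for medium chains, measured 94.96, 102, 97.9 and 125 FPKM in the plive-Tet1 livers, against 98.7, 100.5, 121 and 152 FPKM in the plive-Con livers. Acads, for short chains, had means of 101 ± 15.03 FPKM in the plive-Tet1 livers and 105 ± 27.6 FPKM in the plive-Con livers (SD, n = 4 each). In each of the 4, plive-Con 4 was the highest liver and the other plive-Con livers lay within or close to the range of plive-Tet1. Their log2 fold changes lay between -0.22 (Acadm) and -0.07 (Acadvl). Without plive-Con 4 they were -0.04 for Acadl and -0.06 for Acadm, and above 0 for Acads and Acadvl, at 0.09 and 0.12.

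Later steps of the mitochondrial cycle behaved alike. Hadha, the larger subunit of the trifunctional protein, measured 42.3, 58.7, 56.6 and 51.9 FPKM in the plive-Tet1 livers, against 48.4, 43.8, 51.8 and 71.5 FPKM in the plive-Con livers. Hadhb, the other subunit, ranged from 31.9 to 38.5 FPKM with plive-Tet1 and from 32.1 to 45.7 FPKM with plive-Con. Both were lowest in plive-Tet1 1 and highest in plive-Con 4. Hadh, the dehydrogenase for shorter hydroxyacyl chains, ranged from 63.9 to 79.6 FPKM with plive-Tet1 and from 65.7 to 98.6 FPKM with plive-Con, with a log2 fold change of -0.22 ± 0.17 (SE), or -0.11 without plive-Con 4. Acaa2, the mitochondrial thiolase that ends the cycle, was the most abundant member per length, with means of 557 ± 42.3 FPKM in the plive-Tet1 livers and 627 ± 154 FPKM in the plive-Con livers (SD, n = 4 each). Its log2 fold change of -0.23 ± 0.18 (SE) was -0.04 without plive-Con 4. Eci1 and Decr1 prepare unsaturated chains for the cycle. Eci1, an enoyl-CoA isomerase, ranged from 45.8 to 51.8 FPKM with plive-Tet1 and from 42.97 to 65.3 FPKM with plive-Con, with a log2 fold change of -0.23 ± 0.14 (SE), or -0.13 without plive-Con 4. It was lowest in plive-Con 1 and highest in plive-Con 4. Decr1, the mitochondrial dienoyl-CoA reductase, measured 62.5, 63.9, 58.6 and 68.2 FPKM in the plive-Tet1 livers, against 65.5, 67.7, 67.8 and 97.3 FPKM in the plive-Con livers. One plive-Con liver stood far above 7 others that lay between 58.6 and 68.2 FPKM. Its exact permutation p was 0.0857, and its log2 fold change was -0.29 ± 0.15 (SE), or -0.12 without plive-Con 4.

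The electron transfer flavoprotein, built from the products of Etfa and Etfb, passes electrons from the dehydrogenases to the oxidoreductase encoded by Etfdh. Etfb measured 187, 138, 126 and 139 FPKM in the plive-Tet1 livers, against 163, 182, 152 and 244 FPKM in the plive-Con livers. plive-Tet1 1 lay above 3 of the plive-Con livers, and the other plive-Tet1 livers lay below all of them. It was one of the 2 members at an unadjusted edgeR p under 0.05, with p = 0.0490 in the fit across all genes (exact permutation p = 0.114), a log2 fold change of -0.38 ± 0.17 (SE) and a value that was lower than every plive-Con liver in 3 of 4 plive-Tet1 livers. Adjusted over all genes it did not pass, and without plive-Con 4 the log2 fold change was -0.20. Its partner Etfa did not have the same order of livers, at 113, 119, 116 and 149 FPKM in the plive-Tet1 livers, against 121, 131, 149 and 114 FPKM in the plive-Con livers. Here plive-Con 4 was among the lowest. Etfdh ranged from 21.6 to 32.7 FPKM with plive-Tet1 and from 21.7 to 29.6 FPKM with plive-Con, and was highest in plive-Tet1 4.

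Among peroxisomal genes, those for import come first. Abcd3 and Abcd2 encode transporters that bring acyl-CoA into the organelle, and Slc27a2 activates very long chains. Abcd3 measured 55.1, 52.9, 45.7 and 69.2 FPKM in the plive-Tet1 livers, against 49.7, 51.98, 70.2 and 88.8 FPKM in the plive-Con livers. Abcd2 was scarce, from 2.45 to 6.38 FPKM with plive-Tet1 and from 4.03 to 6.49 FPKM with plive-Con. Both were highest in plive-Con 4 and lowest in plive-Tet1 3, and their log2 fold changes were -0.28 ± 0.21 for Abcd3 and -0.37 ± 0.25 (SE) for Abcd2. With 1 liver left out, Abcd3 lay between -0.42 (without plive-Tet1 4) and -0.08 (without plive-Con 4), and Abcd2 between -0.65 (without plive-Tet1 4) and -0.20 (without plive-Tet1 3). Slc27a2 measured 219, 245, 228 and 313 FPKM in the plive-Tet1 livers, against 248, 248, 372 and 308 FPKM in the plive-Con livers. It was highest in plive-Con 3, and its log2 fold change of -0.28 ± 0.19 (SE) lay between -0.42 (without plive-Tet1 4) and -0.15 (without plive-Con 3) with 1 liver left out.

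Ehhadh, the bifunctional enzyme of the peroxisomal cycle and a classical PPARα target (ENSMUSG00000022853, GRCm39 chromosome 16, 21580037 to 21606557, minus strand), measured 75.2, 148, 115 and 150.1 FPKM in the plive-Tet1 livers, against 98.8, 113, 149 and 316 FPKM in the plive-Con livers. The liver with the highest value, plive-Con 4, had 4.20 times the FPKM of the lowest, plive-Tet1 1, and the other 6 lay between 98.8 and 150.1 FPKM. The log2 fold change was -0.53 ± 0.34 (SE), with a 95% interval from -1.26 to 0.20 and an exact permutation p of 0.486. Without plive-Con 4 it was -0.03. Hsd17b4, the other multifunctional enzyme, which also serves branched chains and bile acid precursors, varied far less, from 99.2 to 133 FPKM with plive-Tet1 and from 110.2 to 139 FPKM with plive-Con.

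Acaa1b and Acaa1a encode the peroxisomal thiolases and are close copies of each other on chromosome 9, so the division of reads between them is uncertain. Acaa1b measured 317, 512, 436 and 423 FPKM in the plive-Tet1 livers, against 322, 413, 490.2 and 821 FPKM in the plive-Con livers. Acaa1a (ENSMUSG00000036138, GRCm39 chromosome 9, 119168742 to 119179365, plus strand) measured 48.3, 52.99, 61.8 and 48.6 FPKM in the plive-Tet1 livers, against 56.8, 58.1, 69.8 and 94.8 FPKM in the plive-Con livers. In Acaa1a the 4 plive-Con livers ranked among the highest 5, and plive-Tet1 3 was above plive-Con 1 and 2. Of all members it had the smallest unadjusted edgeR p, 0.0254, with a log2 fold change of -0.46 ± 0.18 (SE), lower than all plive-Con livers in 3 of 4 plive-Tet1 livers. It was not called after adjustment, the exact permutation p was 0.0857, and without plive-Con 4 the log2 fold change was -0.26. A gene that overlaps it on the opposite strand, Myd88, collected 10.8% as many counts as Acaa1a. Acaa1a made up between 9.39% and 13.2% of the FPKM of both thiolases with plive-Tet1 and between 10.4% and 14.97% with plive-Con.

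The enzymes that handle double bonds of unsaturated chains were all highest in plive-Con 4. Eci2, an isomerase of peroxisomes and mitochondria, measured 32.4, 36.02, 32.9 and 44.5 FPKM in the plive-Tet1 livers, against 30.4, 37.4, 47.4 and 73.2 FPKM in the plive-Con livers. Decr2, the peroxisomal dienoyl-CoA reductase, ranged from 63.4 to 90.8 FPKM with plive-Tet1 and from 73.96 to 115 FPKM with plive-Con. Ech1, the dienoyl-CoA isomerase, averaged 139.6 ± 13.8 FPKM in the plive-Tet1 livers and 159 ± 33.5 FPKM in the plive-Con livers (SD, n = 4 each). The log2 fold changes were -0.43 for Eci2, -0.31 for Decr2 and -0.25 for Ech1. Without plive-Con 4 these estimates were -0.12 for Eci2, -0.19 for Decr2 and -0.11 for Ech1. Pex11a, which promotes division of peroxisomes and responds to PPARα agonists in rodents, measured 27.5, 41.9, 30.2 and 39.5 FPKM in the plive-Tet1 livers, against 23.8, 30.9, 37.7 and 82.8 FPKM in the plive-Con livers. Without plive-Con 4 its estimate was 0.13, against -0.39 with it.

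Crot, which transfers medium chains to carnitine so that they can leave the peroxisome, was the exception (ENSMUSG00000003623, GRCm39 chromosome 5, 9016033 to 9047324, minus strand). It measured 168, 142, 111 and 224 FPKM in the plive-Tet1 livers, against 132, 120.4, 149 and 90.7 FPKM in the plive-Con livers. plive-Con 4 was the lowest liver, the reverse of most peroxisomal genes, and plive-Tet1 4 was the highest. The log2 fold change was 0.34 ± 0.22 (SE), with a 95% interval from -0.13 to 0.81, an exact permutation p of 0.314 and overlapping groups. Without plive-Con 4 it was 0.23, and over all livers left out in turn it lay between 0.13 (without plive-Tet1 4) and 0.46 (without plive-Tet1 3).

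For ketone bodies, Acat1 makes acetoacetyl-CoA and Bdh1 converts acetoacetate to 3-hydroxybutyrate, both in mitochondria. Acat1 measured 91.6, 96, 98.00 and 122 FPKM in the plive-Tet1 livers, against 90.4, 91.5, 120.0 and 124 FPKM in the plive-Con livers. Bdh1 measured 108, 125, 127 and 122 FPKM in the plive-Tet1 livers, against 111, 108, 133 and 148 FPKM in the plive-Con livers. Both were highest in plive-Con 4 and the groups overlapped. Acat1 in plive-Tet1 4 was nearly level with plive-Con 4. The ranges of both genes between livers, 1.37-fold for each in FPKM, were among the narrowest of the members. The log2 fold changes were -0.12 ± 0.17 and -0.11 ± 0.15 (SE) for Acat1 and Bdh1. With 1 liver left out, Acat1 lay between -0.23 (without plive-Tet1 4) and -0.02 (without plive-Con 4), and Bdh1 between -0.20 (without plive-Con 2) and -0.01 (without plive-Con 4).

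The remaining PPARα targets differed from one another. Pdk4, the kinase that switches off pyruvate dehydrogenase in fasting, measured 10.9, 19.4, 8.12 and 8.39 FPKM in the plive-Tet1 livers, against 10.2, 11.6, 8.00 and 32.05 FPKM in the plive-Con livers. plive-Con 4 was the highest and plive-Tet1 2 came next, while the other 6 livers lay between 8.00 and 11.6 FPKM. Its log2 fold change was -0.47 ± 0.39 (SE), and lay between -0.82 (without plive-Tet1 2) and 0.20 (without plive-Con 4) with 1 liver left out. Vnn1, a pantetheinase that releases cysteamine, ranged from 31.9 to 52.6 FPKM with plive-Tet1 and from 38.7 to 56.3 FPKM with plive-Con. Unlike Pdk4, it was highest in plive-Con 2. Aldh3a2, a dehydrogenase for fatty aldehydes, measured 61.3, 95.8, 84.2 and 80.7 FPKM in the plive-Tet1 livers, against 58.6, 68.9, 72.7 and 114 FPKM in the plive-Con livers. The sign of its estimate turned with several settings, from -0.02 with all livers to 0.23 without plive-Con 4.

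Other genes of the same pathways were read from 4 lists. None of their tested genes passed the edgeR test after adjustment. Of 29 further genes of mitochondrial oxidation, 22 had an estimate below 0 and 16 without plive-Con 4. Their median log2 fold change with all livers was -0.09, and 0 were at an unadjusted p under 0.05. Of 41 further genes listed as peroxisomal, among them Mpv17, there were 31 below 0 and 27 without plive-Con 4, with 3 at that p and a median of -0.05. Ketone metabolism had 6 of 11 below 0 and 4 without plive-Con 4, with 1 at that p and a median of -0.07. The wider PPARα axis had 28 of 38 below 0, with 7 at that p and a median of -0.08, and 17 below 0 without plive-Con 4. In 23 of these 38 genes plive-Con 4 was the highest liver in CPM, against 18.2% of all tested genes. Of all tested genes, 48% were below 0, 48.3% without plive-Con 4, and 4.07% were at that p. The genes with the smallest p in these lists divided into those whose estimate moved over 1.5 times without plive-Con 4 and those whose estimate did not. Cyp4a14, a fatty acid ω-hydroxylase, measured 154, 291, 203 and 259 FPKM in the plive-Tet1 livers, against 196, 242, 300.4 and 1456 FPKM in the plive-Con livers. Its log2 fold change was -1.34 ± 0.54 (SE), and -0.16 without plive-Con 4. Cyp4a10 had -1.20 ± 0.43 and -0.35, and G0s2, an inhibitor of triglyceride lipolysis, had -1.16 ± 0.44 and -0.30. The thioesterases Acot3, Acot4 and Acot2, close copies of one another, had -3.21 ± 0.88, -1.12 ± 0.44 and -0.78 ± 0.45 (SE). Without plive-Con 4 they had -0.999, -0.20 and 0.18. DESeq2 gave no adjusted p for Acot3, Acot2 or Cyp4a14. Acot3, with 0.56, 1.78, 1.99 and 0.98 FPKM in the plive-Tet1 livers, against 2.83, 2.09, 2.82 and 39.3 FPKM in the plive-Con livers, was lower in every plive-Tet1 liver than in any plive-Con liver, but was not called. Slc22a5, the carnitine importer, had -0.44 ± 0.29 and 0.00. The monocarboxylate transporter genes Slc16a6 and Slc16a7 had 0.43 ± 0.23 and -0.25 ± 0.17, and without plive-Con 4 0.26 and -0.13.

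Other genes moved less without that liver. Pparg, the relative of PPARα that drives fat storage, measured 8.58, 10.96, 8.35 and 7.80 FPKM in the plive-Tet1 livers, against 6.91, 7.01, 6.11 and 6.43 FPKM in the plive-Con livers. The groups did not overlap, and its log2 fold change of 0.38 ± 0.13 (SE) was 0.38 without plive-Con 4, although it was not called after adjustment. Slc16a1, a transporter of ketone bodies and lactate, measured 25.4, 29.6, 17.9 and 25.8 FPKM in the plive-Tet1 livers, against 17.8, 20.1, 19.4 and 19.5 FPKM in the plive-Con livers, with a log2 fold change of 0.31 ± 0.14 (SE). Pxmp2, a channel of the peroxisomal membrane, measured 74.1, 54.1, 61.5 and 66.4 FPKM in the plive-Tet1 livers, against 79.2, 68.4, 92.1 and 104 FPKM in the plive-Con livers, with a log2 fold change of -0.48 ± 0.16 (SE) and -0.36 without plive-Con 4. Mpv17 had 0.20 ± 0.11, with groups that did not overlap. Such separation, seen here in Acot3, Pparg and Mpv17, was found in 2.28% of all tested genes. The genes named from these lists were picked for a small p, which favours it. Acot13 had -0.26 ± 0.14, Mcee -0.21 ± 0.12 and Sirt3, a mitochondrial deacetylase, -0.18 ± 0.16. None of these was called.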

How the data were processed

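Liver RNA was sequenced as paired reads, per the labels' protocols. Per the submitters' processing notes, cutadapt 1.9.1, HISAT2 2.2.1 and HTSeq 0.6.1 were used with GRCm39. The annotation release and strand setting are not stated there. The deposited table holds raw counts per gene and, per the file headers, FPKM, which differed by at most 0.00500 from count per exonic length and library total. FPKM values are therefore on library totals, whereas fold changes and CPM use TMM scaling.

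Genes kept by filterByExpr were fitted in edgeR 4.0.16 (R 4.3.3) with glmQLFit and glmQLFTest on group alone, two-sided, with Benjamini-Hochberg adjustment over 14533 genes at a threshold of 0.05. Standard errors and 95% intervals were derived from its F statistic. Log2 CPM used a prior count of 2. Single genes were also given an exact permutation test. DESeq2 1.42.0 and limma 3.58.1 on log2(FPKM + 0.5) were alternatives. The fit was tested on simulated data with seeded changes. Libraries of a group differed beyond sampling noise, with 12.9 to 77.6 chi-square per degree of freedom, using genes of at least 10 counts in a pair.

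The members, roles and lists were chosen with earlier results of these data known. All members are named, with the 4 genes of smallest p in each other pathway list. One marker symbol was matched as a RefSeq synonym. Of the 37 members, 18 are overlapped by another gene of the table, only Crat and Acaa1a by one with over 10% of their counts.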

Additional observations from a re-analysis of the deposited data

Results flagged for a closer look

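In 2 of the 74 sets of 4 livers examined (37 members in 2 groups) one liver lay far from the other 3, and chance alone sets apart about 1 in 20 such sets. Both were plive-Con 4. Decr1, the mitochondrial dienoyl-CoA reductase, had 97.35 FPKM there, against 65.5 to 67.8 FPKM in the other plive-Con livers. Pdk4, the pyruvate dehydrogenase kinase, had 32.05 FPKM there, against 8.00 to 11.6 FPKM in the other plive-Con livers.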

How the results depend on the processing

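Beside the 0 genes called by edgeR, DESeq2 called 11, and testing without the filter on low counts called 132, of which none was a member. The smallest adjusted p of a member under any setting was 0.140, for Ehhadh without that filter. The log2 fold change of 37 of 37 members moved by over 1.5 times when at least 1 of the livers was left out. Over all 16 alternatives 24 members kept the sign of their log2 fold change. With plive-Con and plive-Tet1 livers left out in turn, between 25 (without plive-Con 4) and 36 members were below 0, and 13 members turned sign at least once, with ranges of -0.0595 to 0.317 for Ppara, -0.283 to 0.00548 for Creb3l3, -0.642 to 0.0487 for Crat, -0.198 to 0.122 for Acadvl, -0.244 to 0.0946 for Acads, -0.207 to 0.083 for Hadha, -0.215 to 0.00648 for Hadhb, -0.186 to 0.0505 for Etfdh, -0.507 to 0.00284 for Acaa1b, -0.601 to 0.132 for Pex11a, -0.819 to 0.197 for Pdk4, -0.163 to 0.0259 for Vnn1 and -0.141 to 0.23 for Aldh3a2. The sign turned above 0 for Acadvl in limma on log2(FPKM + 0.5), log2(FPKM + 0.1) and log2(FPKM + 1), at 0.0055, 0.0055 and 0.0054. For Etfdh it turned in the same 3 limma fits, at 0.0097, 0.0097 and 0.0096, and with library totals, at 0.0189. For Aldh3a2 it turned in these fits, at 0.0621, 0.0625 and 0.0615, and with library totals, at 0.0342. The cause of these turns was not tested. No pairing of livers by replicate number was seen. Same-numbered deviations from the group means correlated at 0.0084, -0.02, 0.07 and -0.04, and of the 4 plive-Tet1 livers only replicate 3 correlated best with its own number. Such correlations cannot exclude a pairing. With the replicate block 0 members were called, 34 were below 0, and the estimate of Aldh3a2 was 0.0158. With 4 livers a group, the 95% intervals of single members spanned between 0.618 and 1.70 on the log2 scale, while depth was no limit for these genes, none of which had fewer than 164 counts in a library.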

Other observations

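Summed over genes, and so weighted towards the most abundant, the 18 mitochondrial members reached 1618, 1789, 1807 and 1865 FPKM in the plive-Tet1 livers, against 1680.1, 1673 and 1984 FPKM in plive-Con 1 to 3 and 2507 FPKM in plive-Con 4. The 12 peroxisomal members reached 1232, 1586, 1422 and 1679 FPKM in the plive-Tet1 livers, against 1286, 1399.7, 1809.7 and 2336 FPKM in the plive-Con livers. The ratio of the peroxisomal to the mitochondrial sum was not tested.

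Markers of lymphoid cells, which none of the members' roles involve, had estimates that did not rest on plive-Con 4. The same held for endothelial markers, of which 11 of 12 were below 0 with and without that liver. Their medians were -0.28 and -0.29, and 3 were at an unadjusted edgeR p under 0.05. Of the 12 lymphoid genes 11 were below 0, against 48% of all tested genes. Their median log2 fold change was -0.78, and 8 were at that p, against 4.07% of all tested genes. Without plive-Con 4 the median was -0.80. None was called after Benjamini-Hochberg adjustment. The summed level was 10.6, 11.1, 13.1 and 9.23 FPKM in the plive-Tet1 livers, against 24.6, 26.6, 7.94 and 19.5 FPKM in the plive-Con livers, so plive-Con 3 lay below every plive-Tet1 liver.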
